A study of Homo sapiens with 6 samples.

Results

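NRF2, encoded by NFE2L2, and the enzymes that keep cellular thiols reduced were followed in OVCAR5 cells exposed to the cysteine-reactive compound SpiD7. The 9 genes were chosen by name, with no threshold on measured values, although earlier results of these data were known. They comprised regulators (NFE2L2 and KEAP1), glutathione synthesis genes (GCLC and GCLM), thioredoxin system genes (TXN, TXNRD1 and SRXN1) and NRF2 targets (NQO1 and OSGIN1). Each was found in 1 row of a table of 29982 gene symbols, and all 9 were among the 13287 genes whose FPKM averaged 1 or more in the 6 libraries. FPKM scales the fragments of a transcript by its length and by the size of the library, so that levels can be compared between genes.

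The cells, OVCAR5, are an established line from an ovarian cancer, and SpiD7 is a spirocyclic dimer that binds cysteine residues covalently. The groups were DMSO, the vehicle (2 libraries), and 10 µM SpiD7 for 2 h (2 libraries), 6 h (1 library) and 12 h (1 library), all from the same line with no genetic change named in the labels. The labels give no exposure time for DMSO and do not say that replicates were separate cultures, so that p-values at 2 h measure only the spread between these libraries, which may be technical. Every comparison at 2, 6 and 12 h used the same 2 DMSO libraries, and at 6 h and 12 h there was no replicate.

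2 columns, which by name hold replicate 2 of DMSO and of 2 h, behaved as group means. Among the 18195 rows that the first DMSO library had above 0, the DMSO column had 0 at 0, and 811 rows lay on its lowest share, 0.526 of the first library (for 2 h, 0 of 18722 rows, with 964 rows at a share of 0.509). Replicate 2 was therefore recovered by subtraction, and every value given below as recovered rests on this reading. Read depth was not in the table, but the steps between low values put the libraries at 0.769 to 1.12 times the depth of the first DMSO library. The recovered libraries stood apart in the share of the FPKM total taken by the microRNA gene MIR6723, 25.0% in the DMSO one and 21.8% in the 2 h one, against 5.04% to 9.19% in the other 4 libraries. Of 8 epithelial and ovarian cancer markers, 6 were at or above 1 FPKM in every library, while WT1 and MUC16 were below 1 in every library. Among the 6, PAX8 was close to this cutoff, from 1.64 FPKM in the recovered DMSO library to 2.12 in the 6 h library. Of 8 markers of blood, endothelial and stromal cells, 5 were below 1 FPKM in every library, with CD3E listed at 0, and the list summed to between 5.54 and 18.1 FPKM, highest in the recovered DMSO library, where PECAM1 was at 10.7. CD14 was above 1 FPKM in every library, from 3.095 in the recovered 2 h library to 9.36 in the 12 h library. The part of these differences between libraries in the results was not tested.

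As background, KEAP1 holds NRF2 in the cytosol and hands it to a ubiquitin ligase for destruction. Electrophiles that bind the sensor cysteines of KEAP1 stop this, and NRF2 then enters the nucleus, pairs with a small MAF protein and binds antioxidant response elements. Its targets make glutathione, recycle thioredoxin and reduce quinones, and many carcinomas, ovarian ones included, keep the pathway active. Because NRF2 is controlled mainly through the stability of its protein, the RNA of NFE2L2 does not measure its activity.

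To show where such an element lies in these genes, the antioxidant response element core TGACNNNGC was searched on both strands of windows from 250 bases before to 50 bases after each RefSeq start (GRCh38.p14), of which 12 matched the 9 genes. It was found in 4 of the 12 windows, belonging to GCLM, TXNRD1 and KEAP1, and in 13.3% of all 35116 promoter windows. The matches below stand in capitals with 10 bases on either side, 5′ to 3′ on the strand of the gene. A reverse match reads GCNNNGTCA. The line of OSGIN1 shows instead its AP-1 site TGACTCA, a motif that shares its opening TGAC with the antioxidant core, can overlap it, and was in 4.95% of all windows and in no other gene of the 9.
GCLM: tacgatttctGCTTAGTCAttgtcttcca
KEAP1: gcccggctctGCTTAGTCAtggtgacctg
TXNRD1, upstream start: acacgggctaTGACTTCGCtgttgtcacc
TXNRD1, internal start: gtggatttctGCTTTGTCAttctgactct
OSGIN1: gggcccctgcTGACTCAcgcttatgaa

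These stretches lie at chr1:93909446-93909474 (minus strand, reaching into the first exon of GCLM in the GENCODE annotation), chr19:10502784-10502812 (minus strand, in an exon of KEAP1), chr12:104215670-104215698 (plus strand, outside any annotated gene), chr12:104286920-104286948 (plus strand, in an exon of TXNRD1) and chr16:83953133-83953159 (plus strand, within OSGIN1 but in no exon). The GCLM and KEAP1 matches are the same 9 letters. KEAP1 and TXNRD1 each had 1 more match that is not shown. The C/EBP-ATF composite site TGATGNAAT and the heat shock element (GAA, TTC and GAA, each 2 bases apart) were in 0 of the 12 windows, against 0.991% and 0.490% of all windows. A match is a description of the letters and no evidence of binding, and the RefSeq windows do not include distal enhancers.

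In DMSO the 9 genes were all well expressed, and their levels in FPKM fell into 3 tiers whose ranges over the 2 DMSO libraries did not overlap, with TXN standing above TXNRD1 within the highest. TXN, the small dithiol protein thioredoxin, was highest at 481 ± 135 (SD, n = 2), ahead of TXNRD1, the selenoenzyme that reduces it, at 287 ± 44.1, and of NQO1, a quinone reductase, at 236 ± 42.9. The second tier held NFE2L2 (67.4 ± 11.8), SRXN1 (50.2 ± 14.0) and KEAP1 (40.0 ± 11.6). The third held GCLC (17.9 ± 1.15), GCLM (15.8 ± 7.50) and OSGIN1 (12.4 ± 1.05). Neighbours within the lower tiers, and TXNRD1 and NQO1, overlapped between the DMSO libraries. Within each library, TXNRD1 was nonetheless above NQO1, and SRXN1 above KEAP1, in 6 of 6 libraries, whereas NFE2L2 over SRXN1, GCLC over GCLM and GCLM over OSGIN1 held in 2 of 6 each. Over all 13287 genes and 6 libraries, mean levels placed TXN at the 98.5th percentile and GCLC, the lowest of the 9, at the 65.7th.

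The recovered DMSO library was lower than the first for 8 of the 9 genes, all but NFE2L2, with a median log2 difference of -0.37. Over all genes it was lower for 7189 of 13287, with a median of -0.06. The gap was widest for GCLM, at 10.5 FPKM against 21.1, and this spread bears on every fold change below.

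**Figure D1:**
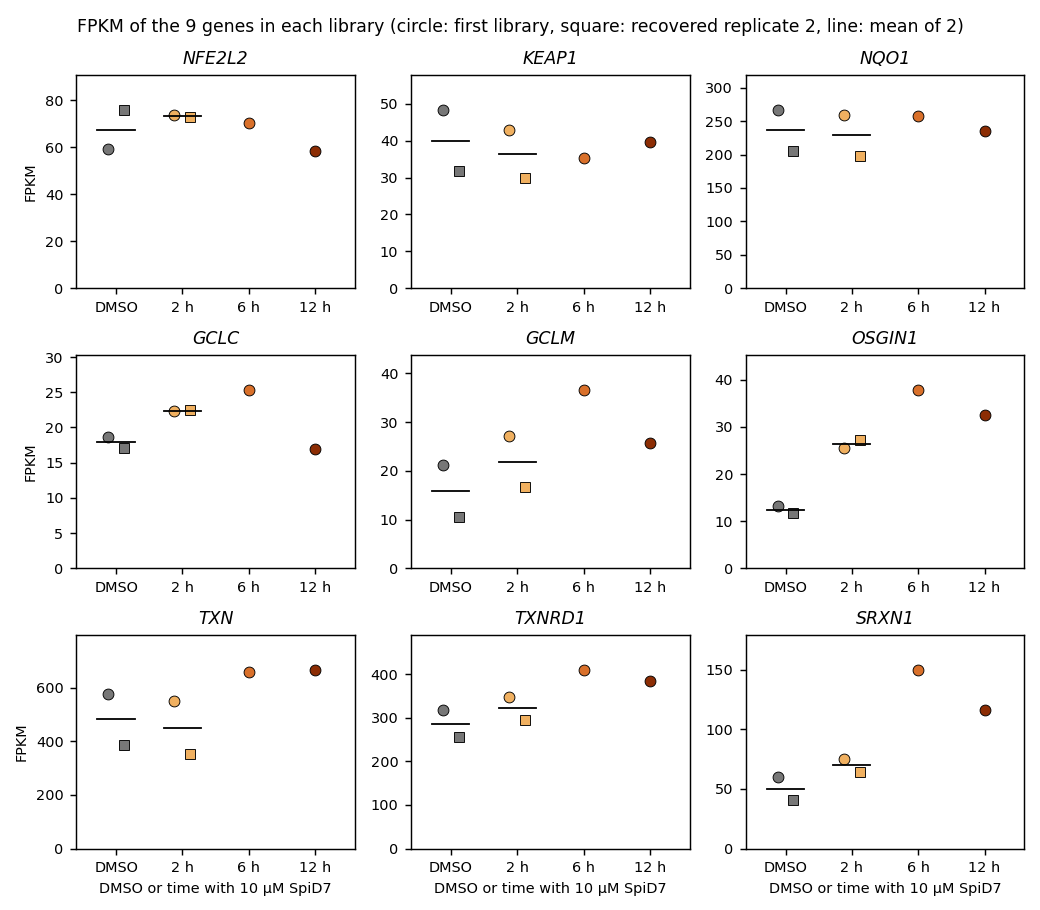
FPKM (vertical axis, from 0) of the 9 genes in each library, by DMSO or hours with 10 µM SpiD7 (horizontal axis). Circles are the first libraries, squares the recovered replicate 2, and lines the mean of 2 libraries. OSGIN1 is above 25 FPKM in all 4 SpiD7 libraries and below 14 in both DMSO libraries, while NFE2L2, KEAP1 and NQO1 show no separation between SpiD7 and DMSO.

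Among the 9 genes, OSGIN1, SRXN1 and GCLM had the largest fold changes at 6 h and 12 h, while NFE2L2, KEAP1 and NQO1 stayed within or close to the range of DMSO. At 2 h, 0 of the 9 genes were called by limma (adjusted p under 0.05 and more than 2-fold), against 0.0226% of all genes tested. The adjusted p was 1.0 for each of the 9, and 1 of them, OSGIN1, had an unadjusted p under 0.05, as had 378 of all genes. The remaining unadjusted limma p-values lay between 0.121 for GCLC and 0.869 for NQO1. Both 2 h libraries exceeded both DMSO libraries for 3 of the 9 genes (OSGIN1, SRXN1 and GCLC), against 13.7% of all genes. More than 2-fold higher than the mean of the DMSO libraries on the log2 scale were 1 of 9 genes at 2 h (2.32% of all genes), 3 at 6 h (5.66%) and 2 at 12 h (6.48%), and 0 of 9 were more than 2-fold lower at any time (against 0.662%, 3.1% and 3.76% of all genes at 2, 6 and 12 h). These counts depended on the DMSO libraries. Without the first, 2 of 9 passed 2-fold at 2 h and 3 at 12 h, and 5 stood above DMSO in both 2 h libraries. Without the recovered one, 0 passed at 2 h and 1 at 12 h. Leaving out the recovered 2 h library gave 5 above both DMSO libraries, and rescaling the libraries without MIR6723 gave 5 above both and 1 past 2-fold at 12 h. With a library left out, the count above DMSO could only stay the same or rise, since fewer libraries were compared. The share of 13.7% belongs to the comparison with no library left out. The median log2 fold change of the 9 genes was 0.17, 0.50 and 0.43 at 2, 6 and 12 h, beside -0.01, 0.03 and -0.05 over all genes. Fold changes throughout are differences of log2(FPKM + 0.1), and standard errors (SE) at 2 h are those of limma.

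At 6 h the single library was above both DMSO libraries for 6 of 9 genes, against 31.6% of all genes, and at 12 h for 5 of 9, against 30.1%. It was more than 2-fold above each DMSO library for SRXN1 and OSGIN1 at 6 h (2 of 9, against 3.21% of all genes) and for OSGIN1 at 12 h (1 of 9, against 3.88%). The 12 h value was below the 6 h value for 7 of 9 genes, against 56.7% of all genes, with a single library on each side.

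**Figure D2:**
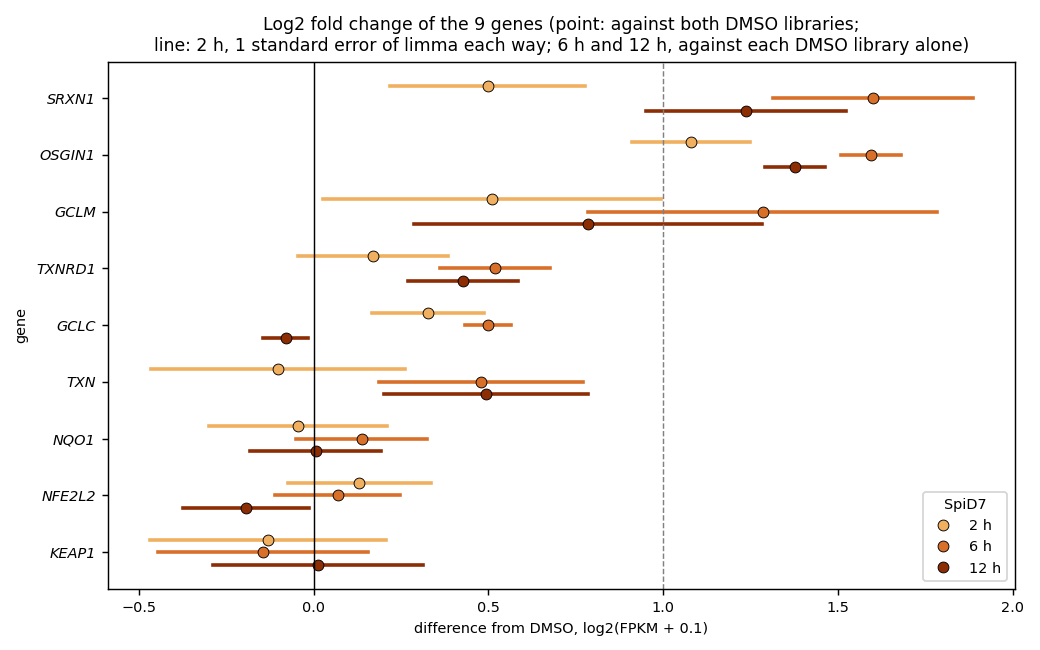
Difference from DMSO in log2(FPKM + 0.1) (horizontal axis) for each gene (vertical axis) at 2, 6 and 12 h of SpiD7. Points are values against both DMSO libraries; lines span 1 standard error of limma each way at 2 h and the values against each DMSO library alone at 6 h and 12 h. OSGIN1 alone has all 3 points past the dashed line, which marks a 2-fold increase.

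Neither regulator separated from DMSO. NFE2L2 (chr2:177230303-177265131, hg38, as are all gene positions here) had 59.0 and 75.7 FPKM in the first and the recovered DMSO library, 73.8 and 72.7 after 2 h, 70.1 after 6 h and 58.5 after 12 h. The 2 h and 6 h values lay between the DMSO libraries, and the 12 h value was just under the lower. The log2 fold changes were 0.13 at 2 h (SE 0.204), 0.07 after 6 h and -0.19 after 12 h. Rescaling the libraries without MIR6723, which shifted the median of all genes by -0.25 at 6 h, turned the 6 h sign, but relative to that median the value was 0.03. In GENCODE, NFE2L2 has a wider span (chr2:177227595-177392697). Over that span it shares exonic positions with AGPS and an antisense RNA on the opposite strand, and with AC019080.1 on the same strand. Whether these positions lie within the deposited locus was not checked. The strandedness of the library kit is not stated in the sources used here, so that any reads from shared positions cannot be told apart.

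KEAP1 (chr19:10486120-10503378), the cysteine sensor itself, had 48.2 and 31.8 FPKM in DMSO, 42.9 and 29.8 after 2 h, 35.4 after 6 h and 39.5 after 12 h. Except for the recovered 2 h library, which was slightly below both, all SpiD7 values lay within the DMSO range. Its log2 fold changes of -0.13 (SE 0.338), -0.15 and 0.01 were each smaller than the log2 gap of 0.60 by which the recovered DMSO library fell below the first. The sign at 12 h turned under the same rescaling, which shifted the median of all genes by -0.34, but relative to that median the value was 0.06.

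Glutamate-cysteine ligase, the rate-limiting enzyme of glutathione synthesis, consists of a catalytic subunit, GCLC, and a modifier subunit, GCLM, that raises its affinity for glutamate. Both subunits were highest in the 6 h library. GCLM (chr1:93887034-93909598) had 21.1 and 10.5 FPKM in DMSO, 27.1 and 16.8 after 2 h, 36.5 after 6 h and 25.8 after 12 h. DMSO and 2 h overlapped, whereas 6 h and 12 h were above all DMSO values. Paired by replicate number, GCLM was 0.36 and 0.66 higher at 2 h on the log2 scale. The log2 fold change was 0.51 at 2 h (SE 0.484), 1.29 after 6 h and 0.79 after 12 h, or 2.44-fold and 1.72-fold at the later times. These values depend on the DMSO library, since at 6 h the log2 difference was 0.79 from the first and 1.78 from the recovered library, and at 12 h 0.29 and 1.28.

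GCLC (chr6:53497341-53545129) had 18.7 and 17.1 FPKM in DMSO, 22.3 and 22.5 after 2 h, 25.3 after 6 h and 16.9 after 12 h. Both 2 h libraries and the 6 h library were above both DMSO libraries, and the 12 h library was below both, with a log2 difference of -0.015 from the lower. The log2 fold changes were small, at 0.33 (SE 0.160), 0.50 and -0.08. Its 12 h value lay 0.58 below its 6 h value on the log2 scale, the widest such step among the 9 genes, and GCLM showed a step of -0.50. In GENCODE, GCLC has a wider span (chr6:53497341-53616970) and overlaps exons of AL033397.1 and of its antisense neighbour AL033397.2. Whether these overlaps lie within the deposited locus was not checked.

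The ratio of GCLM to GCLC within a library, which is not affected by the scaling of whole libraries, was 1.13 and 0.618 in DMSO, 1.22 and 0.744 after 2 h, 1.45 after 6 h and 1.53 after 12 h. The ratio at 6 h and 12 h was above all 4 earlier libraries, while DMSO and 2 h overlapped. The log2 change of the ratio, 0.79 at 6 h and 0.87 at 12 h, was about as large as the log2 gap between the DMSO libraries (-0.87).

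**Figure D3:**
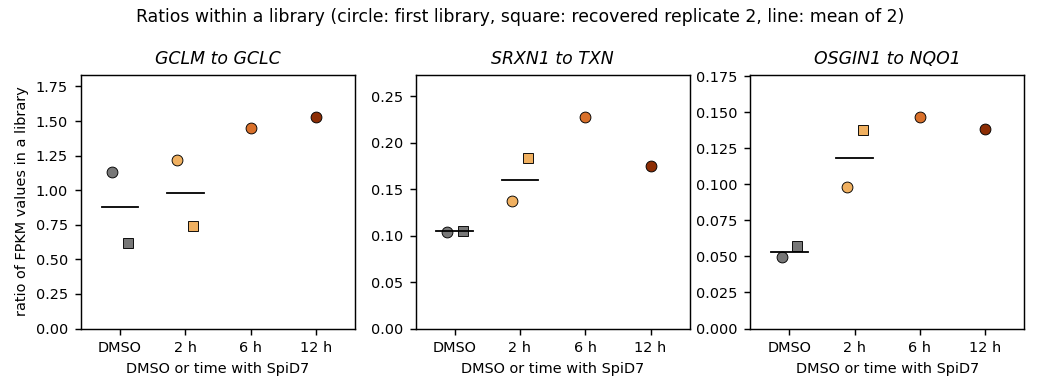
Ratio of FPKM values within each library (vertical axes, from 0) for GCLM to GCLC, SRXN1 to TXN and OSGIN1 to NQO1, by DMSO or hours of SpiD7 (horizontal axes). Circles are the first libraries, squares the recovered replicate 2, and lines the mean of 2 libraries. The DMSO ratios of SRXN1 to TXN nearly coincide at 0.104 and 0.105, and all SpiD7 ratios of SRXN1 to TXN and of OSGIN1 to NQO1 lie above DMSO, while those of GCLM to GCLC overlap DMSO at 2 h.

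Within the thioredoxin system, the repair enzyme had larger fold changes than thioredoxin and its reductase. SRXN1 (chr20:646615-653370), sulfiredoxin, restores peroxiredoxins whose catalytic cysteine has been overoxidised. It had 60.1 and 40.3 FPKM in DMSO, 75.2 and 64.3 after 2 h, 150 after 6 h and 116 after 12 h. All 4 SpiD7 libraries were above both DMSO libraries, and the 6 h library was highest. The log2 fold change was 0.50 at 2 h (SE 0.279), 1.60 after 6 h and 1.24 after 12 h. Against the first DMSO library alone the differences were 1.31 at 6 h and 0.95 at 12 h, and against the recovered one 1.89 and 1.52, so that 12 h passed 2-fold against only the recovered library. SRXN1 shares exonic positions with AL121758.1 on the same strand, from which its reads cannot be separated here.

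TXN (chr9:110243812-110256640) had 577 and 385 FPKM in DMSO, 550 and 351 after 2 h, 657 after 6 h and 664 after 12 h. The 2 h libraries overlapped DMSO, and the later libraries were above it. The log2 fold changes were -0.10 (SE 0.363), 0.48 and 0.49. TXN and KEAP1 were the 2 genes of the 9 with no lower value at 12 h than at 6 h.

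TXNRD1 (chr12:104215779-104350307) had 318 and 255 FPKM in DMSO, 348 and 295 after 2 h, 408 after 6 h and 383 after 12 h. DMSO and 2 h overlapped, and 6 h and 12 h were above both DMSO libraries. Paired by replicate number, TXNRD1 was 0.13 and 0.21 higher at 2 h on the log2 scale. Its log2 fold changes of 0.17 (SE 0.214), 0.52 and 0.43 were close to those of TXN at the later times, and the ratio of TXNRD1 to TXN was 0.551 and 0.663 in DMSO, 0.634 and 0.840 after 2 h, 0.622 after 6 h and 0.577 after 12 h. Apart from the recovered 2 h library, which was above both, these ratios lay within the DMSO range. The ratio of SRXN1 to TXN was 0.104 and 0.105 in DMSO, 0.137 and 0.183 after 2 h, 0.228 after 6 h and 0.175 after 12 h, above DMSO in all 4 SpiD7 libraries.

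The remaining NRF2 targets, OSGIN1 and NQO1, had unlike values. OSGIN1 (chr16:83953222-83966332), oxidative stress-induced growth inhibitor, had 13.2 and 11.7 FPKM in DMSO, 25.5 and 27.3 after 2 h, 37.8 after 6 h and 32.4 after 12 h. The groups did not overlap, and the recovered library differed from the first by -0.17 in DMSO and 0.09 at 2 h on the log2 scale. The log2 fold change was 1.08 at 2 h (SE 0.169), 1.60 after 6 h and 1.38 after 12 h, corresponding to 2.11-, 3.02- and 2.60-fold. At 2 h the unadjusted limma p was 0.00490 and the adjusted p was 1.0, so that the difference did not pass over all genes, and leaving out the recovered DMSO library brought it to 0.99, just under 2-fold. The later differences were 1.51 and 1.68 from the first and recovered DMSO libraries at 6 h and 1.29 and 1.46 at 12 h, and thus past 2-fold against each. Of all genes, 1.99% had a larger log2 fold change than OSGIN1 at 2 h, 2.69% at 6 h and 3.62% at 12 h. In GENCODE, OSGIN1 has a wider span (chr16:83948282-83966332) and shares exonic positions with AC009119.2 on the same strand. Whether these positions lie within the deposited locus was not checked.

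NQO1 (chr16:69709401-69726668), a widely used readout of NRF2, had 266 and 206 FPKM in DMSO, 260 and 198 after 2 h, 257 after 6 h and 235 after 12 h. The recovered 2 h library was below both DMSO libraries, and the other SpiD7 libraries lay between them. The log2 fold changes were -0.05 (SE 0.255), 0.14 and 0.01, and relative to the median of all genes, when libraries were rescaled without MIR6723, they were -0.03, 0.10 and 0.05. That rescaling shifts all genes together, and before the shift was taken off each sign was turned. The ratio of OSGIN1 to NQO1 within a library was 0.0495 and 0.0569 in DMSO, 0.0984 and 0.138 after 2 h, 0.147 after 6 h and 0.138 after 12 h, so that the proportion was higher than DMSO in every SpiD7 library. The ratio of SRXN1 to NQO1 was 0.226 and 0.196 in DMSO and 0.290 to 0.581 with SpiD7. For GCLM to NQO1 it was 0.0794 and 0.0513 in DMSO and 0.0847 to 0.142 with SpiD7, without overlap.

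The profiles of the 2 genes with the widest range over the 6 libraries, SRXN1 and GCLM, were set beside those of all genes by the distance between log2 profiles centred on their mean. Nearest to SRXN1 were ARAP2 (distance 0.233), STX3 (0.253) and LOC101929761 (0.335). STX3 had 18.5 and 13.2 FPKM in DMSO, 26.7 and 22.9 after 2 h, 43.5 after 6 h and 38.4 after 12 h, an order of libraries like that of SRXN1. Nearest to GCLM were CAPRIN2 (distance 0.211), AC002116.7 (0.263) and ASNS (0.271), the last encoding asparagine synthetase. ASNS had 29.1 and 13.4 FPKM in DMSO, 34.2 and 26.1 after 2 h, 49.7 after 6 h and 38.6 after 12 h, and thus the low value of the recovered DMSO library that GCLM also had. These distances rest on 6 libraries that share their scaling, and are descriptions.

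Related genes were described by 4 lists, of which the glutathione and thioredoxin lists were drawn by function and not by NRF2 control. Over all genes, 2.32%, 5.66% and 6.48% were more than 2-fold higher at 2, 6 and 12 h. More than 2-fold lower were 0.662%, 3.1% and 3.76%. Of 11 partners and regulators of NRF2, all with a mean of at least 1 FPKM, 1 was more than 2-fold higher at each time and 0 were more than 2-fold lower, with a median log2 fold change of 0.01, 0.06 and 0.52 at 2, 6 and 12 h. That gene was MAFF, a small MAF partner of NRF2, at 6.64 and 66.2 FPKM in DMSO, 52.9 and 94.6 after 2 h, 86.7 after 6 h and 77.1 after 12 h. Its 12 h value was 3.52 above the first DMSO library but 0.22 above the recovered one on the log2 scale, and 0 of the list passed 2-fold at any time without the first DMSO library, against 3, 2 and 3 without the recovered one. The autophagy receptor SQSTM1, which draws KEAP1 away from NRF2, was 0.85 above DMSO on the log2 scale at 12 h, but this was 1.62 from the first DMSO library and 0.08 from the recovered one. BTRC, a ubiquitin ligase subunit that also targets NRF2, was at 0.72 (0.62 and 0.83 from the single DMSO libraries). The lowest at 12 h were BACH1, a repressor that competes for the same elements (-0.35), and NFE2L1, the NRF2 relative NRF1 (-0.39). BACH1 lay within the DMSO range, at 0.57 from the first and -1.28 from the recovered library, so that its sign turned with the library left out. The median of the list at 12 h was likewise 0.57 with the first and 0.08 with the recovered library as the only DMSO library.

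Of 27 further glutathione genes, 25 had a mean of at least 1 FPKM. Their medians were -0.01, 0.02 and 0.01 at 2, 6 and 12 h, with 0 more than 2-fold lower. More than 2-fold higher were 1, 2 and 2 at these times, against 2.32%, 5.66% and 6.48% of all genes. The count was 3 at 2 h without the first DMSO library and 4 at 12 h without either DMSO library, and with no filter on low values it was 2 at 2 h. CHAC1, which degrades glutathione, was 3.47 above DMSO on the log2 scale after 2 h, 4.54 after 6 h and 3.21 after 12 h, with an unadjusted limma p of 0.00500 and an adjusted p of 1.0 at 2 h. Its DMSO values were low, at 0.738 and 2.075 FPKM. The log2 difference of CHAC1 at 6 h was 5.22 from the first DMSO library and 3.85 from the recovered one. SLC3A2, the heavy chain of the cystine carrier, had 205 and 112 FPKM in DMSO, 287 and 222 after 2 h, 557 after 6 h and 672 after 12 h, and was highest at 12 h. Its partner SLC7A11, which carries the cystine from which glutathione is made, had 22.1 and 7.42 FPKM in DMSO, 21.3 and 11.6 after 2 h, 23.8 after 6 h and 20.5 after 12 h, so that at 12 h it was within the DMSO range. The log2 fold change at 12 h was 0.81 for GLRX2, a mitochondrial glutaredoxin, -0.64 for HAGH, a glyoxalase, and -0.72 for OPLAH, the oxoprolinase of the glutathione cycle. HAGH was at -0.18 from the first DMSO library and -1.09 from the recovered one, and GLRX2 and OPLAH kept their signs against each. GSS and GSR, which complete and recycle glutathione, had log2 fold changes between -0.26 and 0.11 at all times.

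Of 14 further thioredoxin genes, all with a mean of at least 1 FPKM, 0 were more than 2-fold higher at any time. Over all genes the shares were 2.32%, 5.66% and 6.48% at 2, 6 and 12 h. More than 2-fold lower at 6 h and 12 h was 1, TXNIP, against 3.1% and 3.76% of all genes. The medians were -0.11, 0.16 and -0.05, and 1 gene was more than 2-fold higher at 12 h without the first DMSO library. TXNIP, which binds and inhibits thioredoxin, had 66.2 and 94.2 FPKM in DMSO, 53.1 and 73.7 after 2 h, 37.8 after 6 h and 28.7 after 12 h. The 6 h and 12 h values were below all DMSO values, with log2 fold changes of -1.06 and -1.46, opposite in sign to those of TXN and TXNRD1 at these times. At 12 h the log2 fold change was 0.91 for TXNL1, a thioredoxin-like protein of the proteasome, 0.39 for MSRB1, a methionine sulfoxide reductase, 0.17 for the mitochondrial reductase TXNRD2 and -0.69 for TXNRD3. The value of TXNRD2 was -0.04 from the first DMSO library and 0.38 from the recovered one.

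Of 28 other NRF2 targets, 27 had a mean of at least 1 FPKM, with medians of -0.03, -0.09 and 0.06 at 2, 6 and 12 h. More than 2-fold higher were 3, 3 and 4 at these times, against 2.32%, 5.66% and 6.48% of all genes. With a pseudocount of 1, 1 was more than 2-fold higher at 2 h. More than 2-fold lower were 0, 0 and 1, against 0.662%, 3.1% and 3.76% of all genes. HMOX1, heme oxygenase, exceeded every gene of the 9 in fold change, with 36.7 and 36.1 FPKM in DMSO, 245 and 354 after 2 h, 773 after 6 h and 529 after 12 h. On the log2 scale this was 3.01 above DMSO after 2 h (SE 0.253), 4.41 after 6 h and 3.86 after 12 h. At 2 h the unadjusted limma p of HMOX1 was 0.000608 and the adjusted p was 0.539. CYP4F11, a fatty acid hydroxylase, was at 2.76 on the log2 scale at 12 h, and CBR3, a carbonyl reductase, at 2.49, the latter from 0.843 and 0.171 FPKM in DMSO to 2.74. UGDH, which makes UDP-glucuronate, was at 1.41, whereas ABCC3 (-0.89) and AKR1C2 (-1.15) were lowest. AKR1C2, the gene counted as more than 2-fold lower, was at -0.35 from the first DMSO library and -1.94 from the recovered one, and ABCC3 at -0.41 and -1.38, so that neither passed 2-fold against the first library. In each of the 4 lists 0 genes were called by limma at 2 h, against 0.0226% of all genes. Unadjusted limma p-values under 0.05 in these lists were those of CHAC1 and HMOX1.

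**Figure D4:**
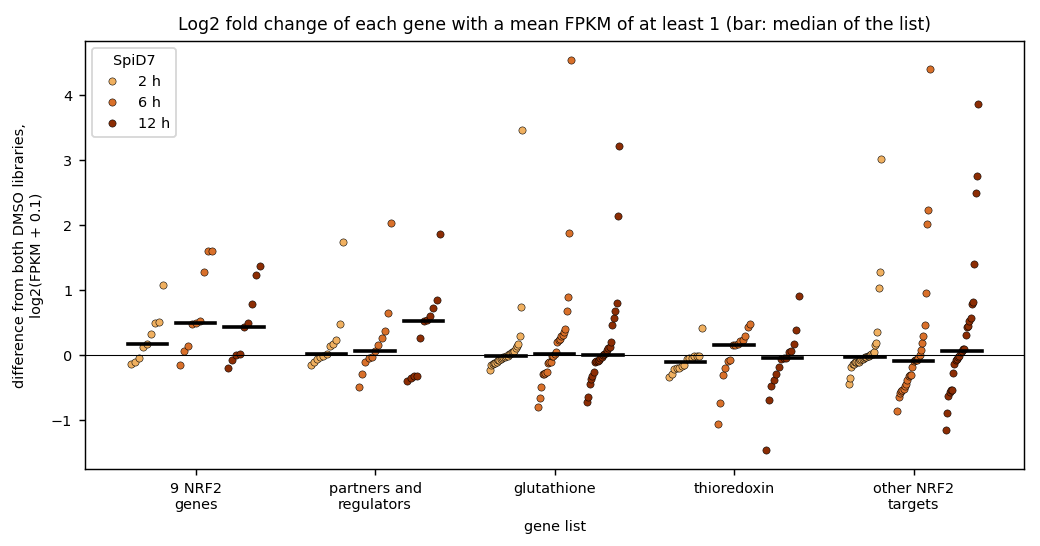
Log2 fold change against both DMSO libraries (vertical axis) of every gene with a mean FPKM of at least 1, for the 9 genes and 4 further lists (horizontal axis) at 2, 6 and 12 h of SpiD7. Points are genes and bars are list medians. The medians of the 9 genes (0.17, 0.50 and 0.43) and of the partners at 12 h (0.52, but 0.08 against the recovered DMSO library alone) are the highest, and the widest spread is in the glutathione and target lists, where CHAC1 and HMOX1 exceed 3 at every time.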

How the data were processed

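Per the labels and methods, single reads of 6 OVCAR5 libraries were trimmed with Trim Galore, aligned with TopHat2 2.0.8 and quantified with Cufflinks and Cuffdiff 2.1.1. The submitters' notes list GRCm38 and hg38, and the table's loci fit the human build. In the table deposited by the authors, FPKM values stand for each side of 4 Cuffdiff comparisons, next to columns of fold changes, p-values and q-values, which were not used. Each comparison was scaled separately, so that the 6 h and 12 h values were divided by 0.972 and 0.994, the level of the first DMSO library in those comparisons relative to the comparison of the first 2 h library. No column of values was without a sample or group (0 columns), and 1 row without a symbol was left out.

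Replicate 2 of DMSO and 2 h was recovered from the group means by subtracting the lowest share of the first library and dividing by it (equal weights), remainders under 0.2% being set to 0. The table holds no counts, so that no counting error can be given. Rows of a symbol were summed, genes kept whose mean FPKM was 1 or more, and log2(FPKM + 0.1) compared by limma 3.58.1 in R 4.3.3 (lmFit, eBayes, Benjamini-Hochberg over 13287 genes) for 2 h against DMSO, tested on simulated data beforehand. The single libraries at 6 h and 12 h were compared without a test. Python 3.11.15, pandas 2.3.3 and numpy 2.4.6 were used for the tables. Promoter windows came from RefSeq and exon overlaps from GENCODE, and 1 was added to the starts of the deposited loci, which are 0-based.

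The members and lists were chosen with earlier results of these data known. The text names all 9 genes, HMOX1, SLC7A11, TXNIP and MAFF, the 3 highest and 2 lowest of each list at 12 h, and the 3 nearest profiles of the 2 genes with the widest range. GSS and GSR were added after their values were seen. MIR6723, PAX8, WT1, MUC16, CD3E, CD14 and PECAM1 are named for library checks. Alternatives were other pseudocounts, filters, scalings and row choices, a replicate block, a trend in limma, leaving out each replicate, and the group means as they stand.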

Additional observations from a re-analysis of the deposited data

Results flagged for a closer look

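GCLC stood on opposite sides of DMSO at different times. Both 2 h libraries and the 6 h library were above both DMSO libraries, while the 12 h library, at 16.9 FPKM, was below both (17.1 and 18.7). Its log2 fold change at 12 h was lower than at 2 h by a difference of -0.41 and lower than at 6 h by a difference of -0.58. The difference was not tested, since 6 h and 12 h had 1 library each, and the 12 h value differed by only -0.15 and -0.015 from the first and the recovered DMSO library on the log2 scale. The other 8 genes did not show such a pattern.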

How the results depend on the processing

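Among the alternatives to the reported settings, 316 fold changes of the 9 genes moved by less than the spread between DMSO replicates or, at 2 h, kept their direction. Another 9 moved by more, and 8 turned sign, all at 2 h. Part of the 316 was fixed in advance. The filters, the row choice, the replicate block and the trend in limma cannot change a fold change of these genes. Leaving out a DMSO library moves a 6 h or 12 h value by less than the DMSO spread by construction. The 316 are therefore no measure of robustness. At 6 h and 12 h, turns of sign in changes under 2-fold were not counted as such, though some occurred. KEAP1 at 6 h, for example, was at 0.15 without the first DMSO library. The count of genes called by limma was 0 under every alternative fit with 2 libraries a group, including a trend in limma. Rescaling without MIR6723 shifted the median of all genes by 0.10, -0.25 and -0.34 (log2) at 2, 6 and 12 h, against at most 0.05 for the other scalings. Under it 1 of the 9 genes was more than 2-fold higher at 12 h, 5 were above both DMSO libraries at 2 h, and NQO1 at 2 h was at 0.055 (log2, adjusted p = 1.0), or -0.03 relative to the median of all genes. Relative to the median of all genes, OSGIN1, SRXN1 and GCLM at 6 h were then at 1.56, 1.56 and 1.24. Leaving out 1 library gave 0 to 2 genes more than 2-fold higher at 2 h, 2 to 3 at 6 h and 1 to 3 at 12 h, 3 to 5 above both DMSO libraries at 2 h, and 0 to 0 called. The count above DMSO could only stay the same or rise when a library was left out, since fewer libraries were compared. Without the first DMSO library 2 genes passed 2-fold at 2 h and 5 were above DMSO, without the recovered one 0 passed at 2 h and 1 at 12 h, and without the recovered 2 h library 5 were above both. The 2 h log2 fold change ranged from -0.0479 to 0.31 for NFE2L2, -0.43 to 0.17 for KEAP1, -0.43 to 0.22 for TXN and -0.24 to 0.15 for NQO1. The cause was not tested. The group means as they stand allowed no limma fit, since they are not independent of the first libraries, and gave 1, 3 and 2 genes past 2-fold at 2, 6 and 12 h. The 2 recovered libraries both had a high share of MIR6723 (25.0% and 21.8% of the FPKM total). Same-numbered libraries are linked in the labels only by their number, and were not paired in the reported limma fit. Their deviations from the group means correlated at 0.369 over 13287 genes, and with the replicate block 0 of the 9 genes were called, with unadjusted limma p-values of 0.00499 for OSGIN1, 0.0351 for GCLM, 0.0379 for GCLC and 0.0453 for SRXN1 and adjusted p-values of 0.329 to 0.352. At 2 h, 5 of the 9 genes were higher in both same-numbered pairs, against 4182 of all 13287 genes. With 2 libraries a group and no counts, differences smaller than the gap between the DMSO libraries were not resolved by the unpaired fit. The 2 h difference of OSGIN1, at 1.08 beside a DMSO gap of -0.17 (log2), was larger and did not pass over all genes either.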
